A study of Rattus norvegicus with 30 samples.

Results

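The genes described here are 7 forkhead transcription factor genes of lung vessels: Foxf1, Foxp1, Foxc1, Foxc2, Foxo1, Foxo3 and Foxq1. They were taken by gene name from a table of gene counts, where they held 8 of 30562 rows, because Foxq1 had 2. Of these 8 rows, 7 passed the filter on low counts, among 16171 rows tested. The row left out, Foxq1 ENSRNOG00000021752, had 15 counts in total in 6 of 30 libraries, and every value of Foxq1 below comes from the other row.

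RNA was sequenced from CD31-positive lung cells of wild-type rats, 3 weeks after a sham operation or a Glenn operation. Each animal was on a control diet, a diet deficient in vitamin A or a diet with an excess of vitamin A, which gives 6 groups of 5 libraries. The Glenn operation connects a large vein of the upper body directly with the pulmonary artery, and that blood then enters the lung without having passed through the liver. The design asks what the operation and dietary vitamin A change in lung endothelium. All groups, the sham groups included, share the genotype, the operation time and the microbead sort for CD31, an adhesion protein on the surface of endothelial cells. The labels give no strain, sex or age and do not say whether each library came from a separate animal, so p-values measure the spread between these libraries, which may be in part technical.

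Forkhead factors bind DNA through a winged-helix domain and are grouped by letter. FOXF1 is needed for the lung's capillary bed, and its loss in people is known from a fatal disorder of lung capillaries. FOXC1 and FOXC2 shape arteries, lymphatic vessels and their valves, and are also made in the mural cells and fibroblasts around vessels. FOXO1 and FOXO3 restrain endothelial growth, and are moved out of the nucleus when insulin, angiopoietin or other growth signals activate the kinase AKT, a step that an RNA level does not show. FOXP1 and FOXQ1 act in both endothelial and epithelial cells.

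Promoter sequences are shown for 2 of the genes that changed after surgery, Foxc1 and Foxp1, and for Foxq1, which did not pass the test and lies on the same chromosome as Foxc1 with the forkhead gene Foxf2 between them in RefSeq's GRCr8 order. They are 300 bases around each gene's start from RefSeq, build GRCr8, which is a later build than that of the counts, and 4 of the 7 genes had an entry. Capitals mark matches on either strand to 4 motifs. These are the forkhead core TGTTTAC, the GC element GGCGCC known to bind BMP-activated SMAD proteins, the CCAAT box and the TATA box TATAAA, with no overlap between the matches shown. A match on the minus strand appears as its reverse complement, and the Foxc1, Foxp1 and Foxq1 genes all lie on the minus strand, at chr17:32844051-32844350, chr4:133353231-133353530 and chr17:33124038-33124337.
Foxc1: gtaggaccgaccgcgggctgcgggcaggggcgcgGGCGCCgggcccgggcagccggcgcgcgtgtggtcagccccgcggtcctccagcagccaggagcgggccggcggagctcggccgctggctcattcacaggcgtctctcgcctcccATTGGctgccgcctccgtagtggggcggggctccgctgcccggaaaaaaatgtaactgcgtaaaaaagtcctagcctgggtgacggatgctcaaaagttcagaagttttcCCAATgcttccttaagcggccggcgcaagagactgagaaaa
Foxp1: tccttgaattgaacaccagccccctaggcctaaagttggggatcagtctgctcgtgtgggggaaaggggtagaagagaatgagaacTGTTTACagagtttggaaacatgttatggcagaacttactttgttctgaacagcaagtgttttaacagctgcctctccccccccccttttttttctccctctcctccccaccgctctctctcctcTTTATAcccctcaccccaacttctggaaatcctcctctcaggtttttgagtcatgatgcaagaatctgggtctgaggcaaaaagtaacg
Foxq1: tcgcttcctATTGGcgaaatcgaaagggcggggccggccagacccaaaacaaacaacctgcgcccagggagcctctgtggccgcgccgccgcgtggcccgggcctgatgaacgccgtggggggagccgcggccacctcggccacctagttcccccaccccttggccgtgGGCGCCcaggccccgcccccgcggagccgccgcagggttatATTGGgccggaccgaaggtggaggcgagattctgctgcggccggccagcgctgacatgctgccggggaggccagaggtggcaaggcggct

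The promoter of Foxp1 held the forkhead core, with its first base at -164 from the start site, and a TATA box match on the minus strand at -39. Those of Foxc1 and Foxq1 each held the GC element, at -216 and -81, and 2 CCAAT boxes. Over 33469 promoters of the same length, 3.78% held the forkhead core, 11.02% the GC element, 37.5% a CCAAT box and 14.2% a TATA box. The GC content was 66.7% for Foxc1 and 72.0% for Foxq1, against 48.3% for Foxp1 and a median of 51.7% over these promoters. A match is a description of the letters and not a bound site.

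The libraries held 22 to 77.6 M counts each, with a median of 40.0 M, and values are given below as CPM, counts scaled by TMM to a library total of 1 M. CPM is not divided by gene length, so levels are compared between groups and not between genes. The library names fall in 2 number ranges, called series A (22 libraries) and series B (8), and series B is absent from both groups on the control diet and from sham excess. Of Glenn excess and of sham deficient, series A holds only replicates 1 and 2, so fits in series A alone rest on few libraries there. All 9 endothelial markers listed were tested and none was at 0 throughout, with summed levels of 8687 to 10827 CPM in sham and 6428 to 9071 CPM in Glenn libraries. Alveolar epithelial markers were also abundant, at 35436 to 60530 CPM in sham and 25754 to 57076 CPM in Glenn libraries, while leukocyte markers summed to at most 69.7 CPM in any library.

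Averaged over the 3 diets, Foxf1 and Foxp1 fell and Foxc1 and Foxc2 rose after Glenn surgery, and Foxo1, Foxo3 and Foxq1 did not pass the test. A gene was called changed at an adjusted p under 0.05 in edgeR's quasi-likelihood test. The 2 genes called higher and the 2 called lower among 7 stand beside 23.4% of all tested genes called higher and 24.7% called lower, so the share of forkhead genes called was near that of all genes. Within each diet the same 4 genes were called in the same direction. The background was 11.8% higher and 13.1% lower on the control diet, 13.7% and 13.7% on the deficient diet, and 11.6% and 10.4% on the excess diet.

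**Figure D1:**
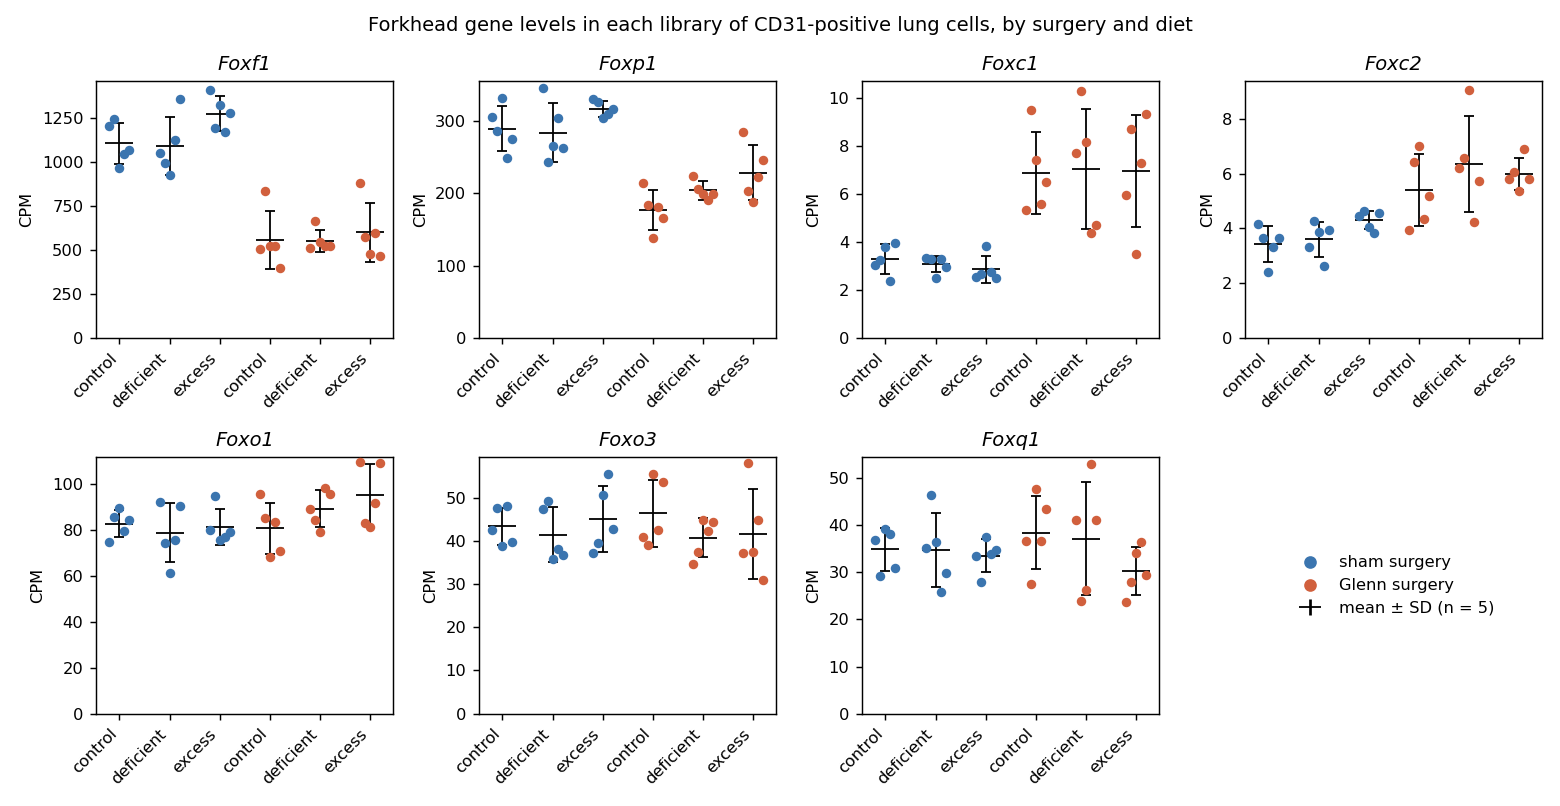
Level of each forkhead gene in CPM (vertical axis, from 0) in every library, by diet (horizontal axis) and surgery (colour), with mean ± SD of 5 libraries. Foxf1 in the Glenn libraries lies between 397 and 881 CPM, below all sham libraries (923 to 1408 CPM), while Foxo1, Foxo3 and Foxq1 overlap between the surgeries.

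Foxf1 (ENSRNOG00000049906) was lower after Glenn surgery in every diet. After sham surgery its level was 1205, 1244, 968, 1046 and 1066 CPM on the control diet, 1052, 995, 923, 1125 and 1358 CPM on the deficient diet, and 1408, 1191, 1324, 1172 and 1278 CPM on the excess diet. After Glenn surgery it was 502, 835, 523, 519.6 and 397 CPM on the control diet, 508, 662, 545, 522 and 519 CPM on the deficient diet, and 881, 571, 478, 597 and 468 CPM on the excess diet. All 15 Glenn libraries lay below all 15 sham libraries, and the highest Glenn values were replicate 1 on the excess diet and replicate 2 on the control diet. Among all tested genes, 2.73% were lower and 3.1% higher with no overlap of 15 against 15 libraries, and Foxf1 was the only one of the 7 genes without overlap. The mean went from 1157 ± 148 to 569 ± 132 CPM (n = 15 each, ± SD), which is a log2 change of -1.01 with an SE of 0.09 (edgeR adjusted p 2.38e-10). By diet the log2 change was -0.99, -1.03 and -1.002 on the control, deficient and excess diets (edgeR adjusted p 1.51e-05, 1.25e-05 and 6.67e-05). In bulk samples such as these, fewer cells of a type and less RNA per cell cannot be told apart.

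In order of mean level, Foxf1 was highest in sham excess (1275 ± 97.4 CPM), then sham control (1106 ± 115 CPM) and sham deficient (1091 ± 167 CPM), followed by Glenn excess (599 ± 168 CPM), Glenn control (555 ± 164 CPM) and Glenn deficient (551 ± 63.3 CPM; SD, n = 5 each). Neighbours in this order overlapped except at the step from sham deficient to Glenn excess. Within series A alone the averaged change was -0.87 (edgeR adjusted p 2.18e-06).

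Fendrr, a long non-coding RNA gene next to Foxf1 in RefSeq's GRCr8 order of the genes counted here, moved with it. Its levels were 278 to 453 CPM in sham and 116 to 268 CPM in Glenn libraries, again with no overlap. The mean went from 338 ± 45.5 to 168 ± 39.4 CPM (n = 15 each, ± SD), which is a log2 change of -1.001 with an SE of 0.09 (edgeR adjusted p 7.32e-10). After each group's mean and the series were taken out, Foxf1 and Fendrr had a Pearson r of 0.84 over the 30 libraries, which share depth and cell makeup, so this is a description only. Mthfsd and Irf8 did not pass the test. Mthfsd, between Foxf1 and Foxc2, had a log2 change of -0.09 (edgeR adjusted p 0.41), and Irf8, beyond Fendrr, had 0.03 (edgeR adjusted p 0.844). Among the genes counted here, Foxf1 and Foxc2 are separated by Mthfsd alone in this order, and they changed in opposite directions.

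Of 16 listed genes that FOXF1 is known to control or act with in endothelium, 10 fell, 2 rose and 4 did not pass the test in the averaged contrast. Of all tested genes, 24.7% were called lower and 23.4% higher. Their median log2 change was -0.01, beside -0.47 for the listed genes. For this and the later lists, the shares of all genes called by diet are those given above. The largest falls were of genes of BMP9 signalling, namely Smad6 (-2.90), an inhibitory SMAD, Tmem100 (-2.28), a BMP-induced membrane protein, and the receptors Eng (-1.45) and Acvrl1 (-1.39; SE 0.07 to 0.11, edgeR adjusted p at most 6.11e-16). By diet, 10 fell and 1 rose on the control, 9 fell and 2 rose on the deficient, and 7 fell and 2 rose on the excess diet. The list shares 5 genes with the endothelial markers, whose sum was lower after Glenn surgery in the ranges given above, and 1 with the arterial markers. Fendrr, described above, is on the list and among the genes that fell, and Tek is also among the FOXO regulators listed below. With mural and fibroblast marker scores as covariates, 6 of the 16 were called, beside 1872 of all 16171 tested genes.

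Foxp1 (ENSRNOG00000009184) also fell in every diet, by less than Foxf1. On the control diet it was 305, 286, 332, 249 and 275 CPM in sham and 214, 183, 139, 182 and 166 CPM in Glenn libraries. On the deficient diet it was 345, 244, 266, 304 and 262 CPM in sham and 224, 206, 199, 191 and 199.6 CPM in Glenn libraries. On the excess diet it was 330.0, 327, 304, 310.1 and 316 CPM in sham and 285, 204, 187, 223 and 246 CPM in Glenn libraries. Sham and Glenn libraries did not overlap within any diet, and 13 of 15 Glenn libraries lay below all sham libraries, the exceptions being replicates 1 and 5 on the excess diet. For 5 against 5 libraries within a diet, the share of all tested genes without overlap was not counted. Such separations are therefore descriptions only, here and below. The mean went from 297 ± 31.8 to 203 ± 34.0 CPM (n = 15 each, ± SD), which is a log2 change of -0.54 with an SE of 0.06 (edgeR adjusted p 2.11e-08). It was -0.71, -0.50 and -0.40 on the control, deficient and excess diets (edgeR adjusted p 5.83e-06, 0.000612 and 0.0125).

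In order of mean level, Foxp1 was highest in sham excess (317 ± 11 CPM), then sham control (289.5 ± 31.4 CPM), sham deficient (284 ± 40.6 CPM), Glenn excess (229 ± 38.1 CPM), Glenn deficient (204 ± 12.6 CPM) and Glenn control (177 ± 27.5 CPM; SD, n = 5 each). Every pair of neighbours in this order overlapped. Within series A the averaged change was -0.52 (edgeR adjusted p 2.62e-05). The call on the excess diet was lost there (-0.37, edgeR adjusted p 0.111) and without Glenn excess replicate 2 (-0.32, edgeR adjusted p 0.0881). Over all 44 alternatives the excess diet call of Foxp1 was kept in 39 and lost in 5. Of the general capillary markers, 5 of 6 were called lower, beside 24.7% of all tested genes. Their sum was 6175 to 9351 CPM in sham and 2786 to 6458 CPM in Glenn libraries. Within groups, Foxp1 had a Pearson r of 0.73 with the mean log2 level of these markers over the 30 libraries. With that of the aerocyte capillary markers the r was -0.26. The aerocyte sum was 1041 to 1789 CPM in sham and 772 to 1201 CPM in Glenn libraries. The part of capillary cells in the fall of Foxp1 was not tested.

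**Figure D2:**
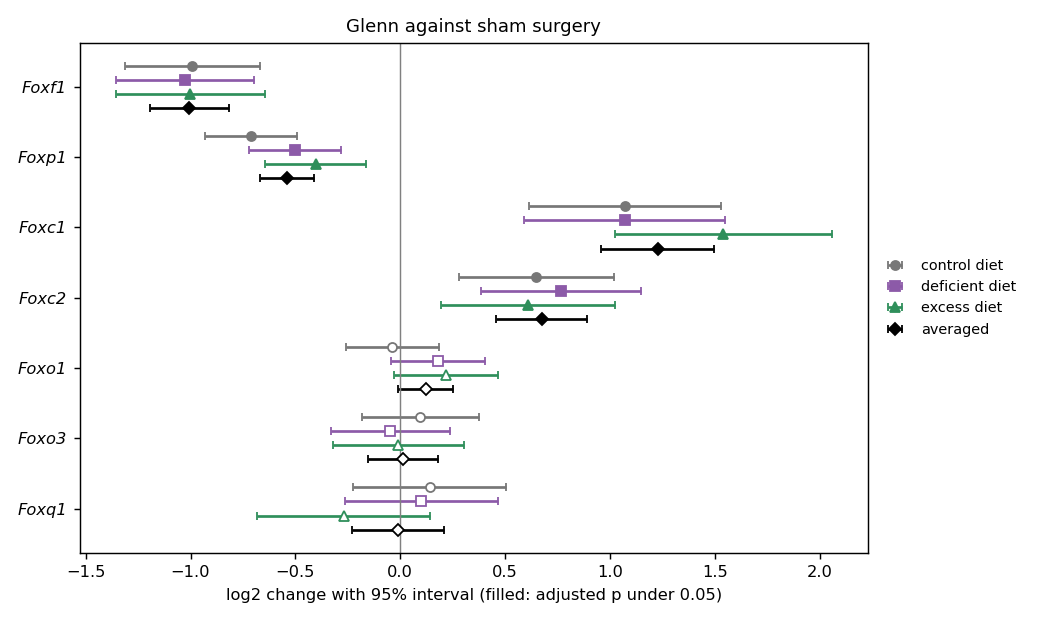
Log2 change after Glenn against sham surgery (horizontal axis) of each gene on each diet and averaged over diets, with 95% intervals and filled symbols at an adjusted p under 0.05. Foxf1 and Foxp1 lie below 0 and Foxc1 and Foxc2 above 0 on all 3 diets, with averaged changes of -1.01, -0.54, 1.23 and 0.67.

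Foxc1 (ENSRNOG00000070919) and Foxc2 (ENSRNOG00000047446) were scarce in the sorted cells and rose after Glenn surgery. They had 80 to 738 and 83 to 498 counts per library, against 11960 to 70397 for Foxf1, so their values carry more counting error. On the control diet Foxc1 was 3.05, 3.25, 3.78, 2.35 and 3.96 CPM in sham and 5.32, 9.51, 7.44, 5.56 and 6.52 CPM in Glenn libraries. On the deficient diet it was 3.33, 3.29, 2.51, 3.27 and 2.97 CPM in sham and 7.71, 10.3, 8.18, 4.39 and 4.69 CPM in Glenn libraries. On the excess diet it was 2.52, 2.65, 3.84, 2.76 and 2.49 CPM in sham and 5.96, 8.70, 3.51, 7.27 and 9.33 CPM in Glenn libraries. Glenn libraries lay above sham libraries without overlap on the control and deficient diets, and Glenn excess replicate 3 alone fell among the sham values. The share of all genes separated in this way within a diet was not counted. The mean went from 3.07 ± 0.52 to 6.96 ± 2.04 CPM (n = 15 each, ± SD), which is a log2 change of 1.23 with an SE of 0.13 (edgeR adjusted p 4.80e-09). It was 1.07, 1.07 and 1.54 on the control, deficient and excess diets (edgeR adjusted p 0.00049, 0.000735 and 2.99e-05). These changes are adjusted for the series, and series B is in Glenn excess but not in sham excess. Mean CPM, not adjusted for the series, went from 3.28 to 6.87, 3.08 to 7.06 and 2.85 to 6.95 in the same order of diets.

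Foxc2 rose by a smaller amount. After sham surgery it was 4.16, 3.66, 2.41, 3.30 and 3.64 CPM on the control diet, 3.31, 4.26, 3.86, 2.62 and 3.92 CPM on the deficient diet, and 4.46, 4.62, 4.03, 3.84 and 4.56 CPM on the excess diet. After Glenn surgery it was 3.96, 6.42, 7.02, 4.33 and 5.19 CPM on the control diet, 6.21, 6.57, 9.05, 4.22 and 5.73 CPM on the deficient diet, and 5.82, 6.06, 5.35, 6.90 and 5.79 CPM on the excess diet. In all, 12 of 15 Glenn libraries lay above every sham library, and only the excess diet showed no overlap, again without a share over all genes. The mean went from 3.78 ± 0.65 to 5.91 ± 1.28 CPM (n = 15 each, ± SD), which is a log2 change of 0.67 with an SE of 0.10 (edgeR adjusted p 3.92e-06). It was 0.65, 0.77 and 0.61 on the control, deficient and excess diets (edgeR adjusted p 0.00749, 0.00218 and 0.0274). On the excess diet the call was lost within series A (0.48, edgeR adjusted p 0.19) and with no series term (0.48, edgeR adjusted p 0.0509). It was also lost without sham excess replicate 3, sham excess replicate 4 or Glenn excess replicate 4 (0.59, 0.57 and 0.55, with edgeR adjusted p 0.0521, 0.059 and 0.0529). Over all 44 alternatives this call was kept in 36 and lost in 7, and the change was reversed in sign in 1. Those not listed here used marker covariates or only the groups compared.

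By mean level, Foxc1 was ordered Glenn deficient (7.06 ± 2.50 CPM), Glenn excess (6.95 ± 2.33 CPM), Glenn control (6.87 ± 1.70 CPM), sham control (3.28 ± 0.64 CPM), sham deficient (3.08 ± 0.35 CPM) and sham excess (2.85 ± 0.56 CPM; SD, n = 5 each). Of the neighbours in this order, only Glenn control and sham control did not overlap. Foxc2 was ordered Glenn deficient (6.36 ± 1.75 CPM), Glenn excess (5.98 ± 0.58 CPM), Glenn control (5.38 ± 1.32 CPM), sham excess (4.30 ± 0.35 CPM), sham deficient (3.59 ± 0.64 CPM) and sham control (3.44 ± 0.65 CPM; SD, n = 5 each), and every pair of neighbours overlapped. Within series A the averaged changes were 1.29 for Foxc1 and 0.70 for Foxc2 (edgeR adjusted p 1.69e-07 and 0.000203).

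Markers of cells around vessels rose with these genes. Of the mural markers, 11 of 12 were called higher, none was at 0 throughout, and their sum was 286 to 501 CPM in sham and 676 to 1991 CPM in Glenn libraries, with no overlap. All 8 lymphatic markers were called higher, with sums of 1102 to 2032 CPM in sham and 2506 to 5139 CPM in Glenn libraries. Of the fibroblast markers, 8 of 10 were called higher. Over all tested genes, 23.4% were called higher and 24.7% lower. Mural cells and fibroblasts lack CD31, while lymphatic endothelium carries it. By CPM, which is not per gene length, the leading mural markers were Myh11, Tagln and Mcam. The leading lymphatic markers were Ccl21, Lyve1 and Mmrn1. Whether the listed markers came only from the cells they stand for was not tested. Within groups the mean log2 level of mural markers had a Pearson r of 0.46 with Foxc1 and 0.64 with Foxc2 (30 libraries). With Foxf1 the r was -0.27. Foxc1 had a higher r, of 0.54, with the mean log2 level of venous markers, against -0.02 for Foxc2. The venous sum was 1765 to 2925 CPM in sham and 1006 to 2447 CPM in Glenn libraries, with 2 of 7 markers called higher and 4 lower.

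**Figure D3:**
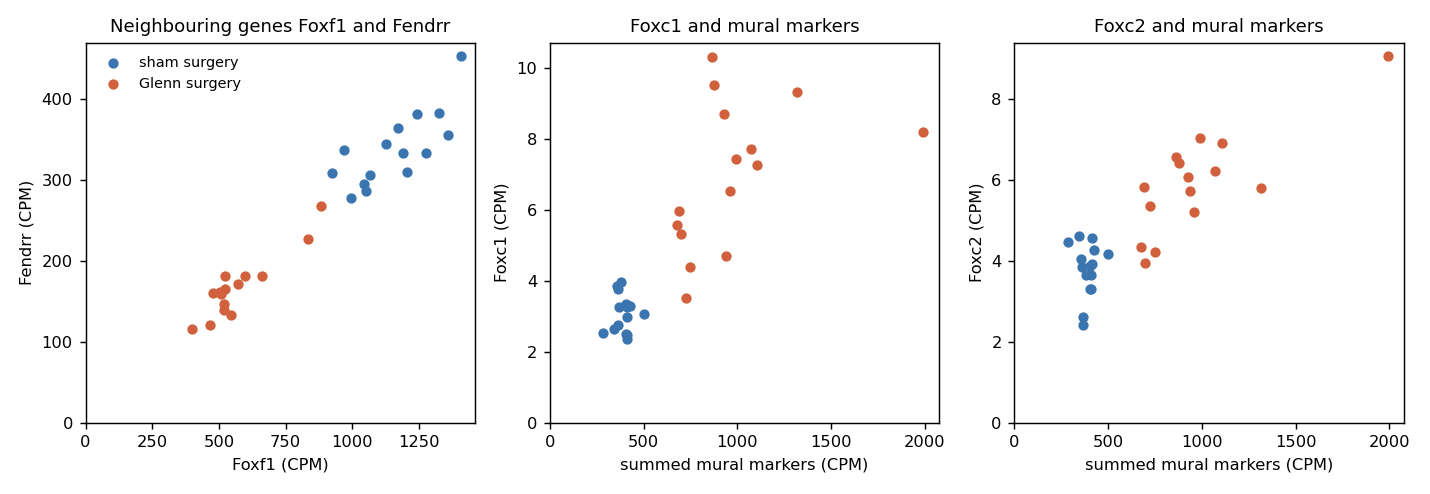
Levels in CPM of each library after sham or Glenn surgery for Foxf1 and Fendrr, for the summed mural markers and Foxc1, and for the summed mural markers and Foxc2. Sham and Glenn libraries form separate clouds in each panel, and the library with the highest mural sum (1991 CPM) also has the highest Foxc2 level (9.05 CPM).

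With the mural and fibroblast scores as covariates, the averaged change of Foxc1 was 0.57 (edgeR adjusted p 0.254) and that of Foxc2 was -0.002 (edgeR adjusted p 0.997). In that fit Foxf1 remained called at -0.73 (edgeR adjusted p 0.026), and Foxp1 was no longer called at -0.37 (edgeR adjusted p 0.108). The mural sum does not overlap between the surgeries, and the number of all genes called fell from 7792 to 1872 in this fit. With the lymphatic score as a covariate, chosen after the data were seen, the averaged changes of Foxf1, Foxc1 and Foxc2 remained called at -1.13, 0.98 and 0.86 (edgeR adjusted p 0.00111, 0.0434 and 0.0312), and that of Foxp1 was -0.45 (edgeR adjusted p 0.057).

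Of 17 listed genes that FOXC1 or FOXC2 are known to control or act with, 11 rose, 5 fell and Hey2 alone did not pass the test (0.16, edgeR adjusted p 0.327). The list's median log2 change was 0.62, beside -0.01 over all tested genes, of which 23.4% were called higher and 24.7% lower. Among those that rose were Cxcr4, a chemokine receptor (98.3 ± 22.1 to 359.7 ± 56.1 CPM; log2 change 1.83), Gja1, the gap junction protein connexin 43 (197 ± 26.9 to 499.7 ± 89.7 CPM; 1.34), and Flt4, the receptor of lymphatic growth factors (77.0 ± 14.9 to 154 ± 18.9 CPM; 1.00; SD, n = 15 each, edgeR adjusted p at most 2.95e-12). Itgb5, an integrin subunit, fell from 67.3 ± 10.6 to 40.4 ± 5.27 CPM (n = 15 each, ± SD; log2 change -0.75, edgeR adjusted p 3.33e-09). By diet, 9 rose on each, and 4, 2 and 2 fell on the control, deficient and excess diets. The list shares 3 genes with the lymphatic markers, 2 with the arterial and 1 with the mural markers. With the lymphatic score as a covariate, 5 of the 17 were called, Flt4 not among them. With the mural and fibroblast scores 8 were called, beside 1872 of all 16171 tested genes.

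Foxc1 lies in RefSeq's order near Foxf2, Foxq1, Gmds and Exoc2, and these neighbours did not pass the test. Foxf2, a forkhead gene known from pericytes and fibroblasts, stood at 3.09 ± 1.12 CPM in sham and 3.68 ± 1.49 CPM in Glenn libraries (n = 15 each, ± SD; log2 change 0.27, edgeR adjusted p 0.263). Gmds, an enzyme of fucose synthesis, had a log2 change of 0.01 and Exoc2, a subunit of the exocyst, one of -0.05 (edgeR adjusted p 0.904 and 0.313).

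Foxo1 (ENSRNOG00000013397) did not pass the test for surgery. Its lowest, median and highest levels were 61.5, 79.7 and 94.9 CPM in sham and 68.5, 85.4 and 109.7 CPM in Glenn libraries, and the groups overlapped, with 5 of 15 Glenn libraries above all sham libraries. The mean was 81.1 ± 8.74 CPM in sham and 88.4 ± 12.1 CPM in Glenn libraries (n = 15 each, ± SD), and the log2 change was 0.12 with a 95% interval of -0.01 to 0.25 (edgeR adjusted p 0.119). By group, mean levels ran from 78.9 ± 12.8 CPM in sham deficient to 95.2 ± 13.7 CPM in Glenn excess (SD, n = 5 each), and all 6 groups overlapped. The table also has a row Foxo1l, singled out after its values were seen because its name is close to Foxo1 and the sharing of reads between near-identical genes is uncertain. Foxo1l fell from 22.3 ± 3.92 to 17.9 ± 2.35 CPM (n = 15 each, ± SD; log2 change -0.30, edgeR adjusted p 0.0032), and with its counts added Foxo1 had a log2 change of 0.04 (edgeR adjusted p 0.61).

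Foxo3 (ENSRNOG00000000299) had nearly the same mean after both operations. Its lowest, median and highest levels were 35.8, 42.7 and 55.5 CPM in sham and 30.9, 42.4 and 58.2 CPM in Glenn libraries. The mean was 43.3 ± 6.0 and 43.0 ± 7.76 CPM (n = 15 each, ± SD), and the log2 change was 0.01 with a 95% interval of -0.15 to 0.18 (edgeR adjusted p 0.908). Group means ran from 40.8 ± 4.48 CPM in Glenn deficient to 46.4 ± 7.66 CPM in Glenn control (SD, n = 5 each), and all 6 groups overlapped. In RefSeq's order it lies between Armc2 and Afg1l. Afg1l, a mitochondrial ATPase, fell from 7.25 ± 1.13 to 4.36 ± 0.73 CPM with no overlap (n = 15 each, ± SD; log2 change -0.72, edgeR adjusted p 8.81e-08), and Sesn1, a FOXO target on the other side, did not pass the test (0.02, edgeR adjusted p 0.875).

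Genes upstream of the FOXO factors changed in both directions. Of 23 rows tested for the 22 listed regulators, 6 rose, 9 fell and 8 did not pass the test. Their median log2 change was -0.004, beside -0.01 over all tested genes, of which 23.4% were called higher and 24.7% lower. Stk4, a Hippo kinase, fell from 149 ± 22.1 to 88.8 ± 14.0 CPM, and Sgk1, a kinase that phosphorylates FOXO proteins, from 358 ± 36.0 to 224 ± 35.8 CPM (n = 15 each, ± SD; log2 change -0.76 and -0.68, edgeR adjusted p 9.54e-09 and 1.55e-10). Pik3ca, the catalytic subunit of PI3 kinase, fell by 0.49 and Tek, the angiopoietin receptor, by 0.40 on the log2 scale (edgeR adjusted p 8.24e-09 and 4.83e-05). By diet the calls were 1 higher and 5 lower on the control, 2 and 5 on the deficient, and 1 and 3 on the excess diet. With the mural and fibroblast scores as covariates, 1 row was called, beside 1872 of all 16171 tested genes.

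Of 24 listed FOXO target genes, 10 rose, 5 fell and 9 did not pass the test, with a median log2 change of 0.12. These counts stand beside 23.4% of all tested genes called higher and 24.7% called lower. Angpt2, the angiopoietin that opposes Tek activation, rose from 16.1 ± 1.27 to 85.0 ± 18.1 CPM, Esm1, a secreted proteoglycan of sprouting endothelium, from 54.9 ± 18.3 to 266 ± 74.8 CPM, and Trib1, a pseudokinase, from 61.3 ± 11.7 to 160.4 ± 27.5 CPM (n = 15 each, ± SD; log2 change 2.38, 2.28 and 1.41, edgeR adjusted p at most 3.32e-11). Tnfsf10, the death ligand TRAIL, fell from 164 ± 28.5 to 83.0 ± 10.6 CPM (n = 15 each, ± SD; log2 change -0.94, edgeR adjusted p 4.03e-13). By diet, 7 rose and 3 fell on the control, 9 rose and 5 fell on the deficient, and 7 rose and 1 fell on the excess diet. With the mural and fibroblast scores as covariates, 6 were called, beside 1872 of all 16171 tested genes.

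Foxq1 (ENSRNOG00000062314) did not pass the test. Its lowest, median and highest levels were 25.8, 34.7 and 46.4 CPM in sham and 23.8, 36.4 and 53.1 CPM in Glenn libraries. The mean was 34.4 ± 5.22 and 35.3 ± 8.89 CPM (n = 15 each, ± SD), and the log2 change was -0.01 with a 95% interval of -0.23 to 0.21 (edgeR adjusted p 0.953). Group means ran from 30.3 ± 5.02 CPM in Glenn excess to 38.5 ± 7.69 CPM in Glenn control (SD, n = 5 each), and all 6 groups overlapped. Within groups Foxq1 had a Pearson r of 0.77 with the mean log2 level of alveolar epithelial markers over the 30 libraries. With that of endothelial markers the r was -0.65. In series A alone its change was -0.21 (edgeR adjusted p 0.144).

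**Figure D4:**
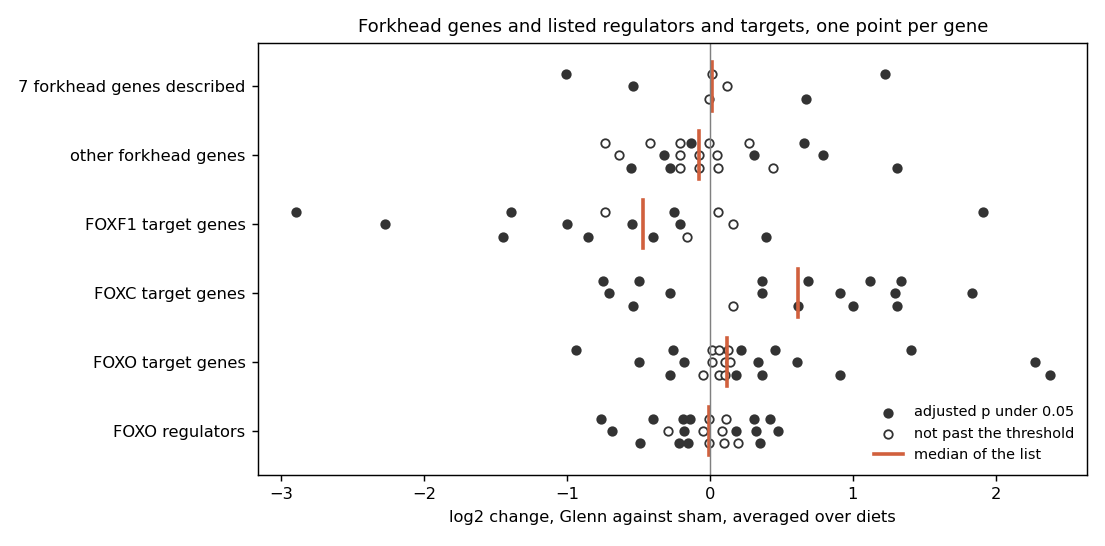
Log2 change after Glenn against sham surgery, averaged over diets (horizontal axis), with 1 point per tested gene for the 7 forkhead genes, other forkhead genes and the listed targets and regulators. Filled points have an adjusted p under 0.05 and bars mark medians, which are -0.47 for FOXF1 targets and 0.62 for FOXC targets.

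Among the other forkhead genes, 21 of 37 were tested, 4 rose, 4 fell and 13 did not pass the test in the averaged contrast. The median log2 change was -0.08. Among all tested genes, 23.4% were called higher and 24.7% lower. Foxs1, known from perivascular cells, rose from 2.81 ± 0.69 to 4.60 ± 1.54 CPM, and Foxj1, the regulator of motile cilia, from 2.08 ± 1.22 to 3.38 ± 1.17 CPM (n = 15 each, ± SD; log2 change 0.66 and 0.79, edgeR adjusted p 0.000324 and 0.0035). Foxp4, a relative of Foxp1, rose by 0.31 (edgeR adjusted p 0.0301). Foxn2 (-0.28), Foxk1 (-0.32), Foxj2 (-0.13) and Foxo6 (-0.56) fell, with edgeR adjusted p between 0.000114 and 0.0197. The fourth that rose, Foxd2, averaged 0.26 CPM after Glenn surgery, under the 1 CPM asked of named genes, and is named only to complete the count. Of these changes, those of Foxj1, Foxj2, Foxo6 and Foxp4 were no longer called within series A, and that of Foxp4 was lost without sham deficient replicate 4, sham excess replicate 1 or 2, or Glenn excess replicate 2 (0.27 to 0.29, edgeR adjusted p 0.0505 to 0.0613). The control and deficient diets each had 1 call higher and 1 lower, and the excess diet had 0 by edgeR, with 5 of 21 at an unadjusted p under 0.05. Of all 16171 tested genes, 5361 had such an unadjusted p on the excess diet.

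Within groups the 7 genes did not vary together as a whole. The highest Pearson r between any pair over the 30 libraries, after group means and the series were taken out, was 0.66 for Foxp1 and Foxo1, and the lowest was -0.56 for Foxp1 and Foxo3. Foxo1 also had an r of 0.70 with the mean log2 level of general capillary markers and of -0.24 with that of aerocyte capillary markers. Foxf1 had one of 0.68 with that of endothelial markers. The genes most like Foxf1 in this measure, among 10677 with a mean of at least 5 CPM, were Epha2 (0.87), an ephrin receptor, Dusp8 (0.85), a phosphatase of stress kinases, and Tlnrd1 (0.85). Foxp1 was most like Rgs3 (0.80), Ldb2 (0.79) and Mras (0.78), and Foxo1 most like Rimbp2 (0.78), Efna1 (0.76) and Efcc1 (0.75). Foxo3 was most like Plcg1 (0.81), P3h2 (0.77) and Cep170b (0.75), and Foxq1 most like Fam117a, Pex11a and Epcam (0.79 each), the last being an epithelial adhesion protein. For Foxc1 the nearest were Pkdcc (0.68), Prpf19 (0.66) and Poll (0.66), and Foxc2, with a mean of 4.84 CPM, was not ranked. These libraries share depth and cell makeup within each preparation, so the values describe these libraries only.

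Between diets within a surgery, 1 of the 7 genes was called in 1 of 6 contrasts. No forkhead gene described here was called for the deficient against the control diet after sham surgery (background 0% of all tested genes) or after Glenn surgery (0.00618%). None was called for the excess against the control diet after sham surgery (0.241%), or for the excess against the deficient diet after sham (0.0124%) or Glenn surgery (0%). At an unadjusted p under 0.05, the edgeR counts of these 5 contrasts were 0, 1, 0, 0 and 0 of 7 genes, the 1 being Foxp1 after Glenn surgery (edgeR adjusted p 0.432). Over all 16171 tested genes the same counts were 844, 1598, 1788, 854 and 837. DESeq2 and limma voom also called 0 of the 7 in these 5 contrasts. The most genes were called for excess against control after Glenn surgery, where 1 of 7 genes was called beside 1.47% of all genes.

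**Figure D5:**
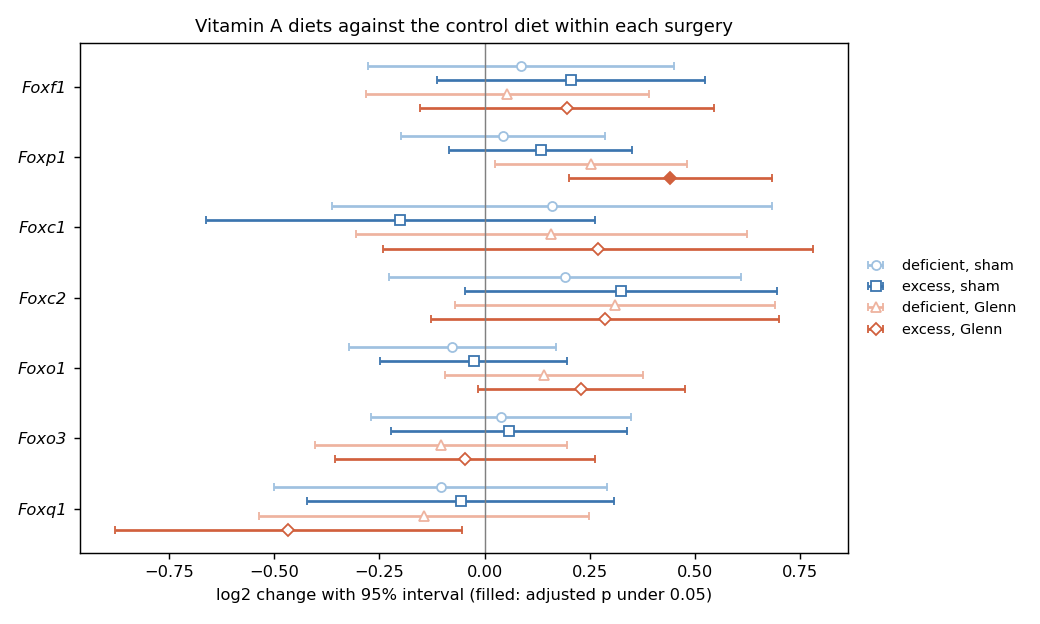
Log2 change on the deficient or excess diet against the control diet within each surgery (horizontal axis), with 95% intervals and filled symbols at an adjusted p under 0.05. Foxp1 on the excess diet after Glenn surgery is the only filled symbol, at 0.44.

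The gene called was Foxp1, higher on the excess diet after Glenn surgery. Its level was 214, 183, 139, 182 and 166 CPM on the control and 285, 204, 187, 223 and 246 CPM on the excess diet, with overlap. The mean went from 177 ± 27.5 to 229 ± 38.1 CPM (n = 5 each, ± SD), which is a log2 change of 0.44 with an SE of 0.12 (edgeR adjusted p 0.0498). The call stood close to the threshold and was lost in 24 of 30 fits that left out 1 library, with log2 changes of 0.32 to 0.53, and in series A alone (0.46, edgeR adjusted p 0.0969). Alveolar epithelial markers in the same groups summed to 28720 to 57076 CPM on the control and 26813 to 40720 CPM on the excess diet, and general capillary markers to 2786 to 4421 and 3694 to 6458 CPM. With the alveolar epithelial score as a covariate, chosen after the data were seen, the log2 change was 0.28 and the call was lost (edgeR adjusted p 0.373). The change kept its sign under every alternative, at 0.28 to 0.53.

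A few listed genes were called in the same contrast. Foxp2, a forkhead gene of lung epithelium, was lower on the excess diet, at 17.9 ± 1.62 CPM on the control and 12.6 ± 3.61 CPM on the excess diet (n = 5 each, ± SD; log2 change -0.71, edgeR adjusted p 0.0178). The FOXF1 targets Gja5, the arterial connexin 40 (0.81), Acvrl1 (0.52) and Eng (0.52) were higher, and so was the FOXO target Tnfsf10 (0.46; edgeR adjusted p 0.0344, 0.0344, 0.0389 and 0.0484). All 5 lost the call with no series term. Foxp2 also lost it without Glenn control replicate 5 or Glenn excess replicate 1 or 2 (-0.70, -0.58 and -0.70; edgeR adjusted p 0.054, 0.199 and 0.0666). Gja5, Acvrl1 and Eng each lost it without any 1 of Glenn control replicates 3, 4 and 5 and Glenn excess replicates 1, 2 and 4 (Gja5 also without Glenn excess replicate 5 and Eng without Glenn deficient replicate 1), and Tnfsf10 lost it in 22 of 30 such fits. In sham libraries the FOXC target Rspo3, a Wnt-enhancing ligand, was called lower on the excess diet (edgeR adjusted p 0.0415), but its levels were at most 0.66 CPM and it lost the call with no series term, in series A and in 13 of 30 fits that left out 1 library.

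Whether the effect of surgery differed between diets was tested by the interaction of surgery and diet. None of the 7 genes was called, beside 0.00618% of all tested genes. None had an unadjusted p under 0.05 in edgeR, beside 925 of all 16171 tested genes. The smallest unadjusted p was 0.138, for Foxp1, with an edgeR adjusted p of 0.972. DESeq2 and limma voom called 0 of the 7 for this interaction as well.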

How the data were processed

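The deposited table gives estimated counts per gene for 30 libraries, with Ensembl rat identifiers and gene names. Per the submitters' processing notes, FastQC, Trim Galore, STAR, Picard and Salmon and the build mRatBN7.2 (rn7) were used, in an order and in versions not given in the sources used here, as are the annotation release and strandedness. RNA extraction with PureLink and library preparation with a low-input SMART-Seq kit are per the labels' protocols. Of the deposited expected counts, 13.6% were not whole, and all were rounded. All 30 columns were used (0 of other samples).

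Genes were kept by filterByExpr (minimum count 10, minimum total 15), scaled by TMM and fitted with edgeR 4.0.16 (robust quasi-likelihood, R 4.3.3) with 6 group means and the library series as terms. Benjamini-Hochberg adjustment covered all 16171 genes. Standard errors are the log2 change over the square root of F, and 95% intervals use 23 residual degrees of freedom, taken from the design. Pearson values within groups use log2(CPM + 1) after group means and the series were removed. For a marker list they use the mean of log2(CPM + 1) over its genes. The marker scores used as covariates are the same means. The 60 pairs of libraries within groups differed beyond sampling noise (chi-square per degree of freedom 20.2 to 119.9). On simulated data of the averaged contrast, 199 of 200 genes changed 2-fold among 15991 were recovered, with 9 false calls. The changed genes were all of at least 1 CPM, and no series effect or shift in cell makeup was simulated. These rates thus do not carry over to the real data or to the contrasts within a diet or a surgery.

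The forkhead genes, gene lists and alternatives were chosen with earlier results of these data known. The genes named are the 7 forkhead genes; up to 8 other forkhead genes of at least 1 CPM called in the averaged contrast, by adjusted p; the 4 of smallest adjusted p from each FOXO, FOXC and FOXF1 list; the 3 most like each forkhead gene; listed genes called between diets; and the 3 most abundant markers of a list. Genes beyond this rule are named where a count or the neighbour order called for it. Alternatives were no series term, series A alone, RT1-CE16 level (a histocompatibility gene that is high in 13 libraries and low in 17) in place of the series, sex inferred from a Y-linked gene, DESeq2 size factors, DESeq2 1.42.0, limma voom (3.58.1), no filter, only the groups compared, a block for the replicate number, covariates made from marker scores, and each library left out in turn. High RT1-CE16 was absent from sham excess, present in part of every other group and present in every series B library. Its level was thus uneven between the groups. Promoters and gene order came from RefSeq tables of GRCr8 by symbol. The order was taken among genes whose symbol is also in the deposited counts, so other annotated genes between neighbours were not looked at. Replicate numbers were not used to pair the libraries, because the labels name nothing that a number shares. Not every pair with the same number had a correlation over 0.1 either, but such a rule cannot exclude pairing. Figures were drawn with matplotlib 3.10.9.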

Additional observations from a re-analysis of the deposited data

Results flagged for a closer look

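In groups of 5, a library was picked out where its gap to the nearest other library as a share of the group's range exceeded Dixon's 95% critical value. Of 42 sets of 5 values for the 7 forkhead genes, 4 were, and chance gives about 2.1. Foxf1 was high in Glenn control replicate 2 at 835 CPM, against 397 to 523 CPM in the others (ratio 0.713). Foxf1 was also high in Glenn deficient replicate 2 at 662 CPM, against 508 to 545 CPM (ratio 0.763). Foxc1 was high in sham excess replicate 3 at 3.84 CPM, against 2.49 to 2.76 CPM (ratio 0.798). Foxo1 was high in sham excess replicate 2 at 94.9 CPM, against 75.5 to 80.3 CPM (ratio 0.755). Without any 1 library, the averaged calls of Foxf1 and Foxc1 stayed past the threshold, with log2 changes of -1.08 to -0.96 and 1.17 to 1.28.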

How the results depend on the processing

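Averaged over diets, Foxf1, Foxp1, Foxc1 and Foxc2 were called without any 1 of the libraries and under every alternative but the marker covariates. With mural and fibroblast scores as covariates, the forkhead genes called numbered 1 averaged and 2, 0 and 0 on the control, deficient and excess diets, instead of 4 each. With the lymphatic score they numbered 3 averaged and 2, 2 and 1 by diet in that order. On the excess diet 2 were called in series A and 2 with only the groups compared, and leaving out 1 library gave 3 to 4. With the mural and fibroblast scores, the changes of Foxc2 were -0.00197 averaged and -0.16 on the excess diet, and those of Foxs1, Foxo6 and Foxp4 averaged -0.42, 0.20 and -0.11. The cause was not tested. All genes called for surgery averaged over diets numbered 7792 of 16171, and 1872 to 8061 over the alternatives. The 1872 were with the mural and fibroblast scores, so calls fell over all genes in that fit. For the counts by diet and with the lymphatic score, here and in the lists, the number over all genes is not given.

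Among the lists averaged over diets, with main counts of 8 other forkhead genes, 15 FOXO regulators, 15 FOXO targets, 16 FOXC targets and 12 FOXF1 targets called, the mural and fibroblast scores left 1, 1, 6, 8 and 6, the lymphatic score left 2, 5, 6 and 5 of the first 4 lists, and series A left 5 other forkhead genes.

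The averaged changes of Foxo3 and Foxq1, both near 0, changed sign. That of Foxo3 was -0.0144 with no series term, -0.0358 in series A, -0.00416 with RT1-CE16, -0.19 with mural and fibroblast scores, -0.215 with the lymphatic score, -0.00594 with voom, and -0.0462 to 0.0450 without single libraries. That of Foxq1 was 0.0298 with no series term, 0.00773 with RT1-CE16, 0.00288 with DESeq2 size factors, 0.00278 with DESeq2, 0.0038 with the replicate block, 0.0309 with mural and fibroblast scores, 0.272 with the lymphatic score, 0.114 with the alveolar epithelial score, and -0.0619 to 0.0432 without single libraries.

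The call of Foxp1 between excess and control diets after Glenn surgery left 0 forkhead genes called with no series term, series A, RT1-CE16, DESeq2 size factors, no filter, the replicate block, the alveolar epithelial score, only the groups compared and voom, and 0 to 1 without single libraries. It remained without sham control replicate 4, sham deficient replicate 2 or 4, Glenn control replicate 1, or Glenn excess replicate 2 or 3. All genes called there numbered 237, and 2 to 557 over the alternatives.

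Replicate numbers were checked for pairing. Over 75 pairs with the same number, deviations had a mean Pearson r of 0.096 (-0.25 to 0.29), 38 pairs exceeded 0.1, and 17 of 30 libraries correlated best with their own number. Over 300 pairs with other numbers the mean was -0.024 and 52 exceeded 0.1. Libraries with the same number were thus more alike, a hint from the data and not from the design. In all 6 groups the Y-linked gene Ddx3y was at 86.7 to 94.6 CPM in replicate 1 and at most 0.08 CPM in replicate 2. All libraries with these 2 numbers were in series A and low in RT1-CE16. The part of these traits in the likeness was not tested. With the replicate block, 4 forkhead genes were called averaged over diets. Adding Foxo1l counts to Foxo1 changed no call. Foxc1 and Foxc2 had the fewest counts of the 7, with 80 and 83 in their lowest libraries.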
